A study of Homo sapiens with 12 samples.

Results

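SRF and 9 genes of actin contractility (ACTA2, TAGLN, MYL9, TPM1, TPM2, CNN1, CNN2, VCL and FHL1) were followed in human melanoma cells that had become resistant to a BRAF inhibitor. The genes were chosen by name, and all 10 were found among the 26499 genes counted in every library. They and the lists below were chosen with earlier results of these data known. Their counts and medians beside all tested genes are therefore descriptions and not tests. The study behind the libraries concerns IGF1 signalling and resistance to BRAF- and MEK-targeted drugs. Poly(A)-enriched RNA was sequenced from 4 groups of 3 libraries each, 12 libraries in all: resistant A375 cells, sensitive A375 cells, resistant SKMel28 cells and sensitive SKMel28 cells. A375 and SKMel28 are established human melanoma lines. The resistant cells of both lines were maintained in 1 µmol/L vemurafenib, a BRAF inhibitor; the labels name no drug for the sensitive cells, and all groups were grown in DMEM with 10% FBS. Resistance and the presence of the drug therefore cannot be told apart in these comparisons. Each resistant group is 1 derivative of its line as far as the labels say. Nothing in them says that a group's libraries were grown as separate cultures, so the spread behind each p-value is that between libraries and may be technical.

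SRF (serum response factor) is a transcription factor that binds a DNA element called the CArG box. It works with 1 of 2 kinds of partner: myocardin-related factors such as MKL1 and MKL2, which monomeric actin holds back until actin is built into filaments, and ternary complex factors such as ELK1, which are phosphorylated by ERK, the kinase at the end of the BRAF and MEK cascade. Many genes of the contractile actin skeleton are textbook targets of the SRF and myocardin-related factor pair, and their products build, tension and anchor actin bundles. In smooth muscle these proteins form the contractile apparatus, and in other cells the same proteins serve stress fibres and adhesions.

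Start regions were read to show where the genes carry letters of the CArG box. RefSeq start windows (GRCh38.p14, 250 bases before to 50 after a gene's start) were given for 8 of the 10 genes, and they are shown for the genes whose windows held the box outside exons. The CArG box reads the same on both strands, so 1 search covered both. A CArG box was found in 3 of the 8 genes (SRF, CNN2 and FHL1), which is 37.5%, against 1.60% of the 27305 genes with a window. Next, 1 departure was allowed, a G or C among the A and T bases between the CC and GG ends of the box. That added ACTA2, making 4 of 8 genes (50%) against 9.88%. The genes do not all have the same number of windows, and 12 of the 22 windows belonged to FHL1; counted by window, 13.6% of these 22 held the exact box against 1.29% of all windows. A match is a description of letters and not a binding site. The genes were chosen as SRF and genes of actin contractility, many of which are textbook SRF targets, so these shares are no test. Boxes outside the windows were not searched for. The boxes stand in capitals below; those of ACTA2 each carry 1 departure. SRF itself has a pair of boxes just before its start (chr6:43171209-43171268, plus strand), ACTA2 has its pair farther upstream (chr10:88952805-88952924, minus strand), and CNN2 has 1 box (chr19:1026489-1026558, plus strand).
SRF: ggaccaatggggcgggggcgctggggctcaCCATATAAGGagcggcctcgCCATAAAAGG
ACTA2: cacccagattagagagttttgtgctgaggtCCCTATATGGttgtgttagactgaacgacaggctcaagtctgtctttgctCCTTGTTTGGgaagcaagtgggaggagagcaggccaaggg
CNN2: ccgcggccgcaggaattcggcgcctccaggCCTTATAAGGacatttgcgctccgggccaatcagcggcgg

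The libraries held 28496518 to 37721363 reads assigned to genes. Levels are given as CPM, reads scaled to a common library size after TMM scaling, and 1 CPM was at least 28 reads in every library. Log2 fold changes carry a standard error (SE), and adjusted p-values are from edgeR's quasi-likelihood test, two-sided, with Benjamini-Hochberg adjustment over 15506 tested genes and a threshold of 0.05. All 10 genes were among those tested. Of 8 melanocyte markers, 8 reached 1 CPM in both SKMel28 groups, with sums of 10925 to 11077 CPM in resistant and 7268 to 7708 CPM in sensitive libraries. PMEL, TYRP1, MLANA, MITF and TYR had higher means in resistant SKMel28 cells, and SOX10, S100B and DCT had lower ones. TYRP1 was at 2037 CPM in resistant and 218 CPM in sensitive SKMel28 cells, and S100B at 185 and 465 CPM. In A375, 1 of the 8 (MITF) reached 1 CPM in resistant cells, where the sums were 31.3 to 33.7 CPM. In sensitive A375 cells 3 did, with sums of 373 to 383 CPM. Most of the sensitive sum was SOX10, at 325 CPM in sensitive and 0.138 CPM in resistant A375 cells. MITF was at 39.6 CPM in sensitive and 31.0 CPM in resistant A375 cells. TYR had 0 reads in both A375 groups, so the labelled cell type is carried by few of its defining markers there. The part of this difference in cell state in the results below was not tested.

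In A375, 4 of the 10 genes were higher in resistant cells (FHL1, ACTA2, VCL and TPM2), 3 were lower (MYL9, CNN2 and TPM1) and 3 did not pass the test (SRF, TAGLN and CNN1). Over all tested genes, 25.0% were called higher and 26.3% lower in this comparison. Libraries of the resistant and sensitive groups did not overlap for 7 of the 10, beside 57.9% of all tested genes. The median log2 fold change of the 10 was 0.30, beside 0 over all tested genes, and the median size without its sign was 0.72, beside 0.24. CNN1 counts in both medians at 0.99, on few reads, 52 in resistant and 26 in sensitive cells.

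In SKMel28, 6 of the 10 were higher in resistant cells (TAGLN, ACTA2, TPM1, FHL1, VCL and CNN2), MYL9 was lower, and SRF, TPM2 and CNN1 did not pass the test. The background was large here, with 34.2% of all tested genes called higher and 35.8% lower. Again 7 of the 10 had groups that did not overlap, beside 71.1% of all genes. The median log2 fold change of the 10 was 0.86, beside -0.01 over all tested genes, and the median size was 1.38, beside 0.46. CNN1 counts in both medians at 1.98, on 14 reads in resistant and 3 in sensitive cells. The median of 0.86 lies between 0.48 for VCL and 1.23 for FHL1, the genes next to it. A share called of 7 in 10 is the same as the 70.0% called over all genes in SKMel28 and is above the 51.3% in A375.

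**Figure D1:**
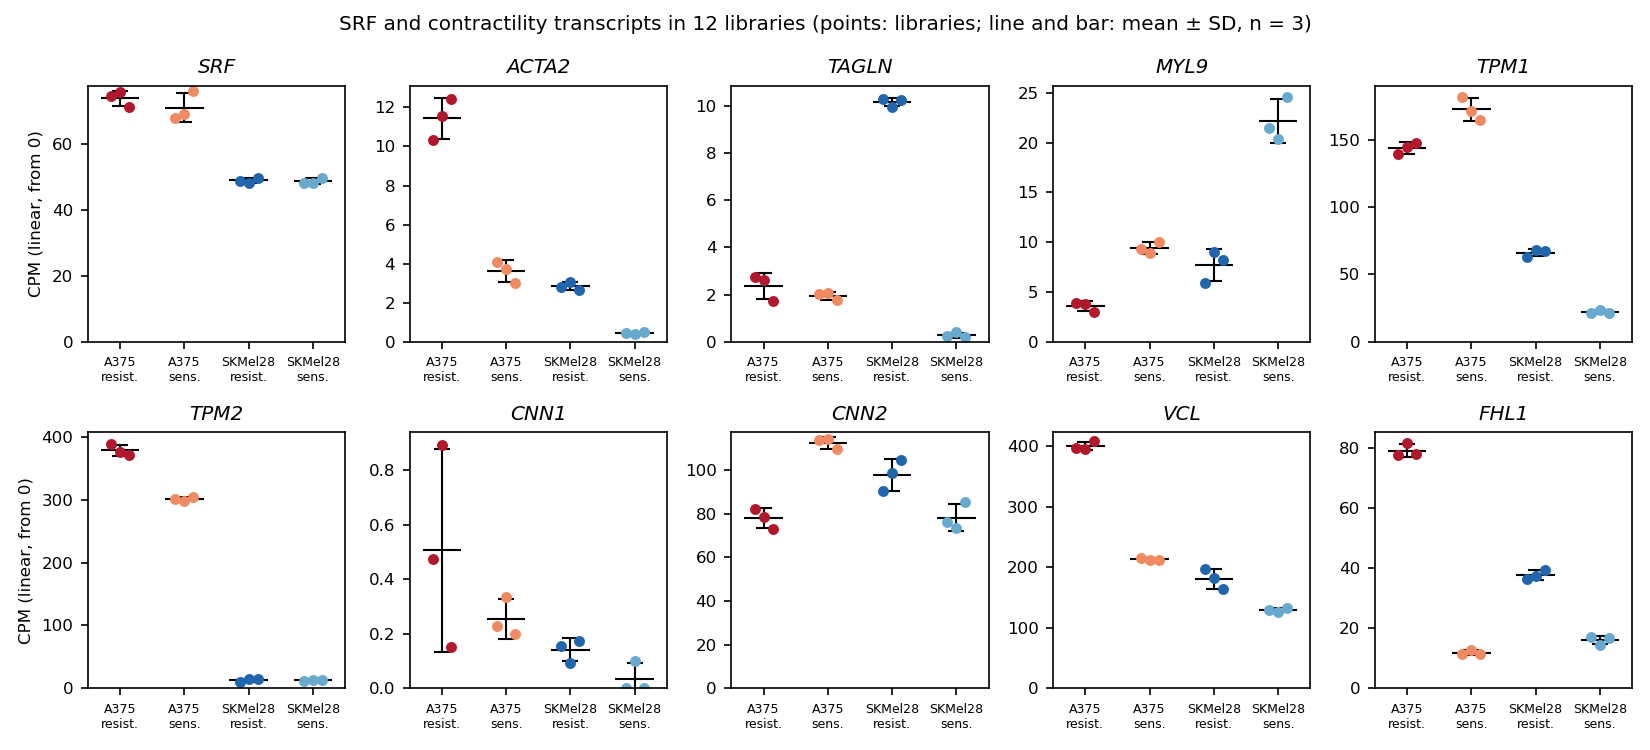
CPM of each gene (linear axis from 0, 1 panel per gene) in the 12 libraries, 1 point per library, with the mean as a line and the SD as a bar (n = 3 per group). Resistant and sensitive libraries overlap for SRF in each line. FHL1, ACTA2 and VCL are higher in resistant cells of both lines, MYL9 is lower in both, and TPM1 and CNN2 go opposite ways.

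SRF, the transcription factor of the set (chromosome 6, 43171299 to 43181507, plus strand, GRCh38), had 74.5, 75.8 and 71.3 CPM in resistant A375 libraries and 67.8, 69.0 and 76.0 CPM in sensitive A375 libraries. The ranges overlapped, and the log2 fold change was 0.06 ± 0.05 (SE; 95% interval -0.04 to 0.16; edgeR adjusted p = 0.307). It had 48.9, 48.2 and 49.6 CPM in resistant SKMel28 libraries and 48.3, 48.3 and 49.8 CPM in sensitive SKMel28 libraries, which also overlapped. There the log2 fold change was 0.00 ± 0.05 (95% interval -0.10 to 0.11; edgeR adjusted p = 0.961). These intervals leave room for changes of up to about 0.16 on the log2 scale in A375 and do not show that the levels were equal. The difference between lines was plain: A375 had more SRF RNA than SKMel28, by 0.59 ± 0.05 in resistant and 0.54 ± 0.05 in sensitive cells on the log2 scale (edgeR adjusted p = 8.08e-15 and 2.75e-13).

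ACTA2, smooth muscle alpha actin, was higher in resistant cells of both lines. It had 10.3, 11.5 and 12.4 CPM in resistant A375 libraries, against 4.11, 3.72 and 3.03 CPM in sensitive A375 libraries. Every resistant library was above every sensitive one, at 3.14-fold (log2 1.65 ± 0.14 SE, edgeR adjusted p = 1.36e-13). In SKMel28 it had 2.83, 3.06 and 2.65 CPM in resistant libraries, against 0.434, 0.403 and 0.489 CPM in sensitive libraries. Those groups stood apart too, at 6.38-fold (log2 2.67 ± 0.24, edgeR adjusted p = 2.68e-13). The log2 change in A375 minus that in SKMel28 was -1.02 ± 0.30 (edgeR adjusted p = 0.00260), so the fold was larger in SKMel28 although the level stayed lower. The ACTA2 gene (chromosome 10, 88935074 to 88991339, minus strand, GRCh38) shares 380 exon bases with FAS, the death receptor gene on the opposite strand, and 516 with ACTA2-AS1. The file names point to counting without strand, and reads of such overlaps cannot then be told apart by strand. Reads counted as ambiguous, 1.14% to 1.39% per library, stood in a summary line that was left out. Whether all reads of these overlaps went there was not tested. FAS itself was higher in resistant cells, with log2 fold changes of 1.11 in A375 and 2.43 in SKMel28 (edgeR adjusted p = 2.03e-15 and 1.48e-21), at mean levels of 29.2 CPM in resistant and 13.5 CPM in sensitive A375 cells, and 10.3 CPM in resistant and 1.91 CPM in sensitive SKMel28 cells. The part of FAS reads in the ACTA2 result was not tested.

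TAGLN encodes transgelin, an actin-binding protein of the calponin family that is abundant in smooth muscle. Its change was seen in SKMel28, where it had 10.3, 9.96 and 10.2 CPM in resistant libraries, against 0.267, 0.403 and 0.195 CPM in sensitive libraries. In reads this is 335, 316 and 351 in resistant and 8, 12 and 6 in sensitive SKMel28 cells. The groups lay far apart, at 34.9-fold (log2 5.12 ± 0.24, edgeR adjusted p = 7.70e-23), the largest fold among the 10 genes in either line. In A375 it had 2.74, 2.62 and 1.73 CPM in resistant libraries, against 2.02, 2.07 and 1.76 CPM in sensitive libraries. The third resistant library lay below all sensitive ones, so the groups overlapped, and the log2 fold change of 0.27 ± 0.19 did not pass the test (95% interval -0.12 to 0.67; edgeR adjusted p = 0.246). Without that library it was 0.49 with an edgeR adjusted p of 0.0388. The change in A375 minus that in SKMel28 was -4.85 ± 0.33 on the log2 scale (edgeR adjusted p = 6.25e-17). TAGLN (chromosome 11, 117199321 to 117204782, plus strand) shares 446 exon bases with PCSK7. PCSK7 fell in both lines, by 0.13 and 0.47 on the log2 scale (edgeR adjusted p = 0.0292 in A375 and 1.37e-09 in SKMel28). Its mean levels were 55.8 CPM in resistant and 61.1 CPM in sensitive A375 cells. In SKMel28 they were 23.4 CPM in resistant and 32.4 CPM in sensitive cells, so they were above those of TAGLN in every group. The part of PCSK7 reads in the TAGLN result was not tested.

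MYL9 encodes the regulatory light chain of smooth muscle and non-muscle myosin II, whose phosphorylation switches on contraction (chromosome 20, 36541484 to 36551447, plus strand). It was the one gene of the set that fell in both lines. In A375 it had 3.91, 3.81 and 2.97 CPM in resistant libraries, against 9.27, 8.90 and 10.0 CPM in sensitive libraries. In SKMel28 it had 5.87, 8.98 and 8.25 CPM in resistant libraries, against 21.5, 20.3 and 24.6 CPM in sensitive libraries. The groups did not overlap in either line. The levels were 2.63-fold lower in resistant A375 cells (log2 -1.40 ± 0.14, edgeR adjusted p = 9.26e-12) and 2.88-fold lower in resistant SKMel28 cells (log2 -1.52 ± 0.12, edgeR adjusted p = 2.18e-15). The difference between the lines was 0.13 ± 0.18 (95% interval -0.24 to 0.49; edgeR adjusted p = 0.557).

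TPM1 and TPM2 encode tropomyosins, coiled coils that lie along actin filaments and govern access of myosin and other proteins. TPM1 (chromosome 15, 63042632 to 63071915, plus strand) had 139, 145 and 148 CPM in resistant A375 libraries, against 182, 171 and 165 CPM in sensitive A375 libraries. It was a little lower in every resistant library, 1.20-fold (log2 -0.26 ± 0.04, edgeR adjusted p = 1.25e-06). In SKMel28 the order was opposite, with 63.0, 68.0 and 67.7 CPM in resistant libraries, against 21.6, 23.8 and 21.4 CPM in sensitive libraries. That was 2.97-fold higher (log2 1.57 ± 0.05, edgeR adjusted p = 5.40e-28), and the log2 changes of the lines differed by -1.84 ± 0.07 (A375 minus SKMel28; edgeR adjusted p = 3.77e-26).

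TPM2 (chromosome 9, 35681992 to 35690121, minus strand) was far more abundant in A375 than in SKMel28. It had 388, 376.5 and 371 CPM in resistant A375 libraries, against 301, 298 and 304 CPM in sensitive A375 libraries. The groups did not overlap, at 1.26-fold (log2 0.33 ± 0.05, edgeR adjusted p = 1.76e-05). SKMel28 libraries had 10.4, 14.5 and 14.5 CPM in resistant cells and 11.2, 12.7 and 13.4 CPM in sensitive cells. These overlapped, and the log2 fold change was 0.08 ± 0.09 (95% interval -0.11 to 0.27; edgeR adjusted p = 0.454); without the first resistant library it was 0.22 with an edgeR adjusted p of 0.00338. The test of the difference between lines passed narrowly, at 0.25 ± 0.11 (edgeR adjusted p = 0.0463), and this call was lost in 7 of the 12 fits that left out 1 library and with DESeq2 (0.28, adjusted p = 0.143).

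CNN1 and CNN2 encode calponins, which bind actin and calmodulin; CNN1 is the smooth muscle form and CNN2 the more widely made one. CNN1 (chromosome 19, 11538717 to 11550323, plus strand) was close to undetected, with 17, 30 and 5 reads in resistant and 9, 11 and 6 reads in sensitive A375 libraries, and 5, 3 and 6 reads in resistant and 0, 3 and 0 reads in sensitive SKMel28 libraries. The test was not passed in either line (edgeR adjusted p = 0.145 in A375 and 0.0956 in SKMel28). At so few reads these counts set no useful limit on a change; for A375 the 95% interval ran from -0.15 to 2.13 on the log2 scale, and the edgeR adjusted p was 0.0344 without the third resistant library, at a log2 fold change of 1.45. In SKMel28 it was 0.0157 without the second sensitive library, which leaves that group at 0 reads.

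CNN2 (chromosome 19, 1026581 to 1039068, plus strand) had 82.2, 78.5 and 73.1 CPM in resistant A375 libraries, against 114, 114 and 109.5 CPM in sensitive A375 libraries. All resistant libraries were lower, by 1.44-fold (log2 -0.53 ± 0.05, edgeR adjusted p = 4.50e-11). In SKMel28 it had 90.3, 98.6 and 105 CPM in resistant libraries, against 76.1, 73.4 and 85.4 CPM in sensitive libraries. There all resistant libraries were higher, by 1.25-fold (log2 0.32 ± 0.05, edgeR adjusted p = 1.26e-06). CNN2 and TPM1 were thus the pair that passed the test in opposite directions in the lines; for CNN2 the changes differed by -0.85 ± 0.07 (edgeR adjusted p = 1.06e-12).

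VCL encodes vinculin, which couples actin filaments to integrin and cadherin adhesions under tension. It had 397, 395 and 408 CPM in resistant A375 libraries, against 214, 212 and 212 CPM in sensitive A375 libraries. The gap was many times the spread, at 1.88-fold (log2 0.91 ± 0.04, edgeR adjusted p = 3.32e-22). In SKMel28 it had 196, 182 and 164 CPM in resistant libraries, against 129, 126 and 132 CPM in sensitive libraries. The resistant libraries were again all higher, at 1.40-fold (log2 0.48 ± 0.04, edgeR adjusted p = 1.85e-13), and the change was larger in A375 by 0.42 ± 0.06 (edgeR adjusted p = 3.14e-08). VCL (chromosome 10, 73995193 to 74121363, plus strand) shares 1109 exon bases with AP3M1. The log2 fold changes of AP3M1 were 0.12 in A375 (edgeR adjusted p = 0.0403) and -0.06 in SKMel28 (edgeR adjusted p = 0.202). Its mean levels were 43.5 CPM in resistant and 40.1 CPM in sensitive A375 cells, and 96.4 CPM in resistant and 101 CPM in sensitive SKMel28 cells. The part of AP3M1 reads in the VCL result was not tested.

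FHL1, a LIM-domain protein abundant in muscle (gene on chromosome X, 136146702 to 136211359, plus strand), had the largest fold of the set in A375. It had 77.6, 81.5 and 77.9 CPM in resistant A375 libraries, against 11.5, 12.7 and 11.3 CPM in sensitive A375 libraries. The resistant libraries lay 6.66-fold higher (log2 2.74 ± 0.07, edgeR adjusted p = 6.96e-33). In SKMel28 it had 36.4, 37.3 and 39.4 CPM in resistant libraries, against 17.0, 14.5 and 16.7 CPM in sensitive libraries. That was 2.34-fold higher (log2 1.23 ± 0.07, edgeR adjusted p = 1.40e-20), again with no overlap. The log2 change was larger in A375 by 1.51 ± 0.09 (edgeR adjusted p = 3.91e-18).

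**Figure D2:**
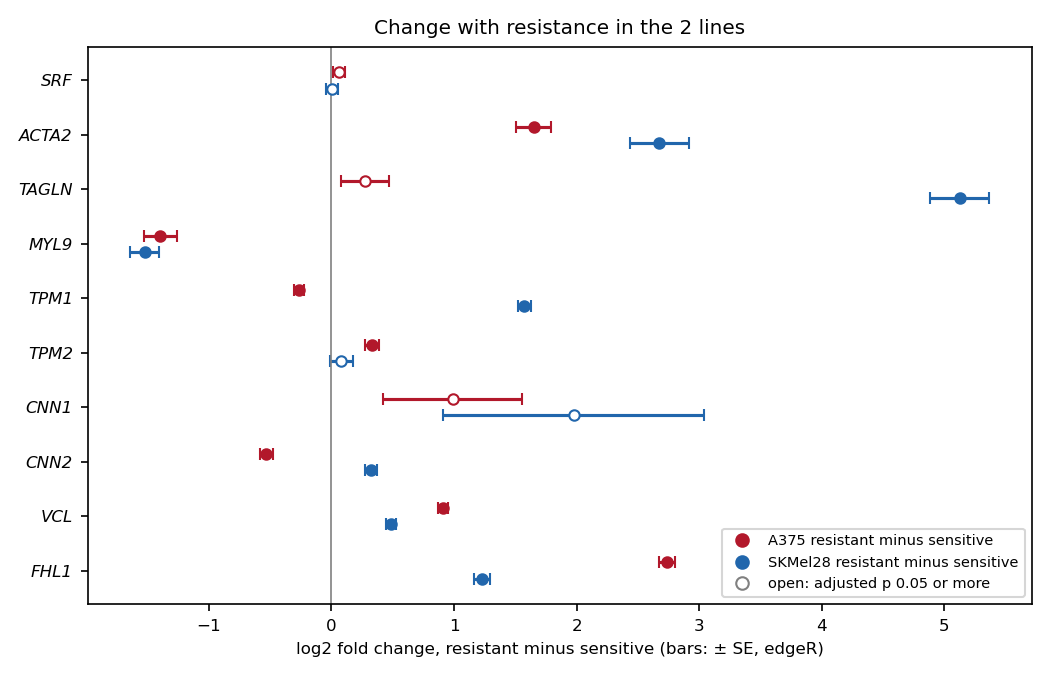
Log2 fold change of resistant over sensitive cells for each gene in A375 and in SKMel28, with SE bars from edgeR and open points where the adjusted p was 0.05 or more. TAGLN reaches 5.12 in SKMel28 and 0.27 in A375, FHL1 reaches 2.74 in A375 and 1.23 in SKMel28, and MYL9 lies at -1.40 and -1.52.

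The changes in A375 and in SKMel28 rest on separate libraries, so they share no control. ACTA2, VCL and FHL1 rose in both lines and MYL9 fell in both. The test of the difference between the lines was passed by 7 of the 10 genes, 3 with the larger value in A375 (FHL1, VCL and TPM2) and 4 with the larger value in SKMel28 (TAGLN, TPM1, ACTA2 and CNN2). Over all tested genes 63.8% passed it, 31.4% with the larger value in A375 and 32.4% with the larger value in SKMel28.

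The level of these genes also depended on the line. In resistant cells all 10 differed between A375 and SKMel28, 7 higher and 3 lower in A375, beside 42.6% of all tested genes higher and 42.7% lower (85.3% in all). Without the second resistant A375 library 9 differed, 6 of them higher. Libraries did not overlap for 9 of the 10, beside 86.0%. In sensitive cells 8 were higher and 2 lower in A375, beside 42.4% of all tested genes higher and 40.5% lower (82.9% in all), and none of the 10 overlapped, beside 83.3%. CNN1 counts as higher in both states on few reads. They were 52 in A375 against 14 in SKMel28 in resistant cells, and 26 against 3 in sensitive cells. CNN1 was the gene whose libraries overlapped in resistant cells. TPM2 differed most in both states: 28.8-fold higher in A375 among resistant cells (log2 4.85 ± 0.07, edgeR adjusted p = 4.61e-25) and 24.2-fold higher among sensitive cells (log2 4.60 ± 0.07, edgeR adjusted p = 2.39e-24). TPM1 was 2.17-fold higher in A375 among resistant cells and 7.76-fold higher among sensitive cells. TAGLN changed places: it was 4.29-fold lower in A375 among resistant cells but 6.73-fold higher among sensitive cells (edgeR adjusted p = 1.30e-15 and 2.26e-11). FHL1 did so the other way, 2.10-fold higher in A375 among resistant cells and 1.36-fold lower among sensitive cells. MYL9 was lower in A375 in both states.

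Ranked over the 4 groups, SRF, ACTA2, TPM2, CNN1 and VCL shared 1 order: resistant A375, sensitive A375, resistant SKMel28, sensitive SKMel28. MYL9 had the opposite ends, lowest in resistant A375 cells (3.56 ± 0.519 CPM, SD, n = 3) and highest in sensitive SKMel28 cells (22.1 ± 2.20 CPM). FHL1 was highest in the resistant groups, 79.0 ± 2.18 CPM in A375 and 37.7 ± 1.55 CPM in SKMel28, and TAGLN was highest in resistant SKMel28 cells (10.2 ± 0.175 CPM). Of the 30 neighbouring pairs in these orders, 22 differed by the edgeR test and 8 did not. Between sensitive A375 and resistant SKMel28 cells 85.6% of all tested genes differed, and between resistant A375 and sensitive SKMel28 cells 83.8% did. The levels of ACTA2 and MYL9 in sensitive A375 and resistant SKMel28 cells passed the test (adjusted p = 0.0382 and 0.0284) although their libraries overlapped. The 8 were resistant and sensitive A375 for SRF and TAGLN, resistant and sensitive SKMel28 for SRF and TPM2, resistant A375 and sensitive SKMel28 for CNN2 (adjusted p = 0.916), and the 3 pairs of CNN1. CNN1 varied widely between libraries, at 0.506 ± 0.371 CPM in resistant A375 cells.

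Several of these genes have close relatives, and their make-up within a family was compared per length of exon (CPM per kilobase). The length was that of all annotated exons of a gene merged, 12876 bases for TPM1 and 3248 for TPM2. A long merged length lowers a gene's share, so the sizes of the shares depend on this choice. Reads from near-identical stretches of actins, tropomyosins, calponins and light chains may have been split or lost in counting, so these levels are uncertain. TPM2 made up 40.5% of the 4-gene tropomyosin level in resistant and 34.7% in sensitive A375 cells, but 2.73% in resistant and 2.81% in sensitive SKMel28 cells. TPM1 was 3.89% of it in resistant and 5.02% in sensitive A375 cells, and 3.47% in resistant and 1.27% in sensitive SKMel28 cells. The rest was TPM3 and TPM4. Without length scaling, TPM1 had 144 CPM against 379 CPM for TPM2 in resistant A375 cells, and 66.2 against 13.2 CPM in resistant SKMel28 cells. In sensitive cells TPM1 had 173 against 301 CPM in A375 and 22.3 against 12.4 CPM in SKMel28. FHL1 was 42.0% of the level of FHL1, FHL2, FHL3 and FHL5 in resistant and 10.8% in sensitive A375 cells, and 22.0% in resistant and 8.52% in sensitive SKMel28 cells. MYL9 stayed minor in the level of the light chains MYL9, MYL6, MYL12A and MYL12B. Its share was 0.423% in resistant and 1.31% in sensitive A375 cells, and 1.10% in resistant and 3.23% in sensitive SKMel28 cells. TAGLN had its highest mean share of the transgelin level in resistant SKMel28 cells, 1.51%, the rest being nearly all TAGLN2. ACTA2 was at most 0.173% of the actin level (resistant A375). CNN2 held an almost even share of the calponin level, 26.4% in resistant and 25.8% in sensitive A375 cells and 24.3% in resistant and 26.5% in sensitive SKMel28 cells.

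**Figure D3:**
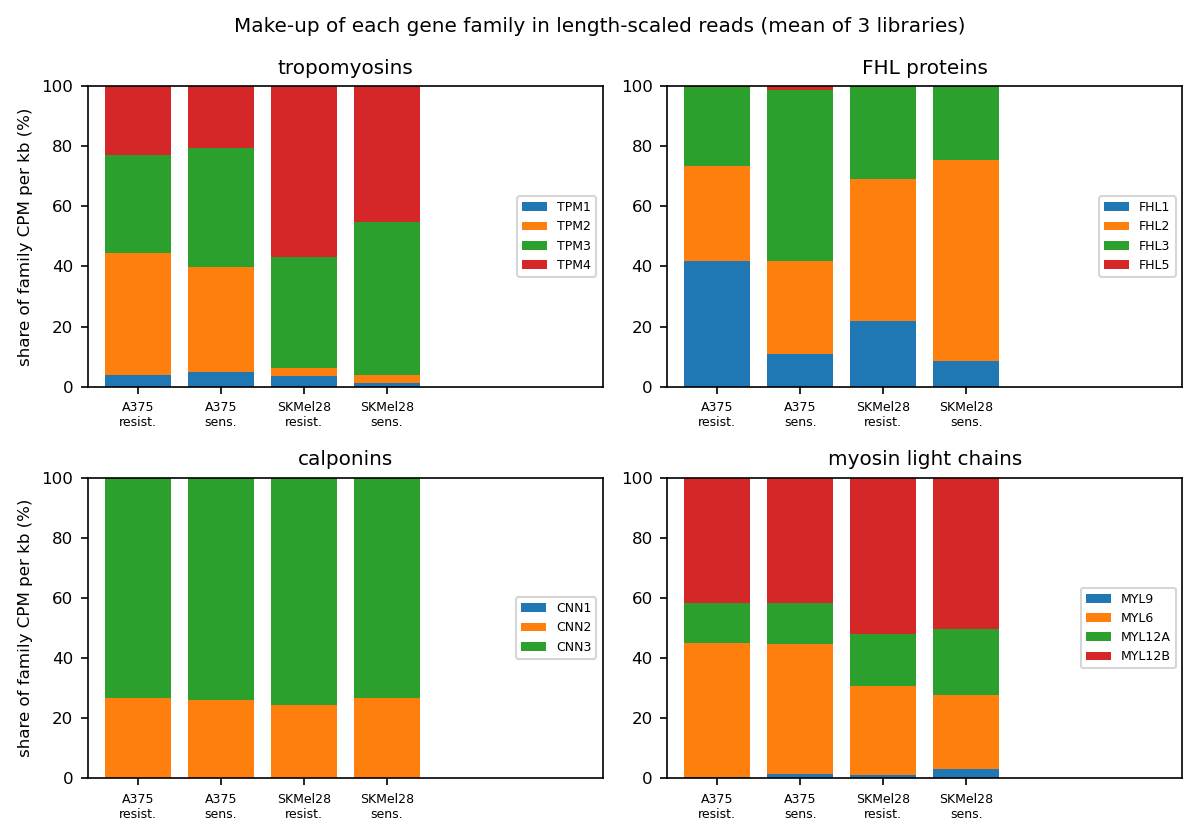
Share of each gene in its family's level (percent of CPM per kilobase, means of 3 libraries) in the 4 groups, for tropomyosins, FHL proteins, calponins and myosin light chains. FHL1 takes 42.0% of the FHL level in resistant and 10.8% in sensitive A375 cells, and TPM2 takes 40.5% of the tropomyosin level in resistant A375 and 2.73% in resistant SKMel28 cells.

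The other genes of the SRF pathway were read from 4 lists. Of the SRF partners, 6 were tested; 4 rose and none fell in resistant A375 cells, and 2 rose and 2 fell in resistant SKMel28 cells (median log2 fold changes 0.28 and -0.05). Of all tested genes, 25.0% were called higher and 26.3% lower in A375, and 34.2% higher and 35.8% lower in SKMel28, so the 4 of 6 called in SKMel28 are near the 70.0% called over all genes. MKL1, a myocardin-related coactivator, rose in both lines, by 0.45 in A375 and 0.18 in SKMel28 (log2; edgeR adjusted p = 1.86e-07 and 0.00565), and its relative MKL2 rose in SKMel28 by 0.34 (edgeR adjusted p = 1.75e-05) and was at 0.04 in A375 (edgeR adjusted p = 0.661). The ternary complex factor ELK1 had 105 CPM in resistant and 91.7 CPM in sensitive A375 cells, and 32.4 CPM in resistant and 77.7 CPM in sensitive SKMel28 cells. It rose in A375 (log2 0.20, edgeR adjusted p = 0.000270) and fell in SKMel28 (log2 -1.26, edgeR adjusted p = 5.78e-25). ELK3 rose in A375 and fell in SKMel28 (log2 0.35 and -0.13), and ELK4 rose in A375 by 0.36 and was at 0.03 in SKMel28 (edgeR adjusted p = 0.630). SCAI, which represses the MKL factors, was at 0.15 and -0.16 and passed in neither line. MYOCD, the muscle coactivator, and ABRA, an activator of the pathway in striated muscle, were too low to test.

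Among 22 other SRF and myocardin-related factor targets, 9 rose and 3 fell in resistant A375 cells, and 12 rose and 7 fell in resistant SKMel28 cells, with median log2 fold changes of 0.06 and 0.13. The 12 of 22 called in A375 are near the 51.3% called over all tested genes, and 70.0% of all were called in SKMel28. ANXA2, a calcium- and membrane-binding annexin, and LIMA1, an actin-bundling LIM protein, rose in both lines (log2 0.32 and 0.71 in A375, 0.59 and 0.79 in SKMel28). MYH10, the heavy chain of non-muscle myosin IIB, and DSTN, an actin-severing protein, fell in A375 (log2 -0.27 and -0.44) and rose in SKMel28 (0.89 and 0.16). MICAL2, which oxidises nuclear actin, did the opposite, with 0.99 in A375 and -0.86 in SKMel28. All of these passed the edgeR test, with the highest adjusted p of 0.000121 for DSTN in SKMel28.

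Of 15 paralogues tested, 8 rose and 5 fell in resistant A375 cells (median log2 fold change 0.11), beside 51.3% of all tested genes called, and in SKMel28 the numbers were 7 and 5 (median 0.06), beside 70.0% called; this list shares ACTB, ACTG1 and ACTG2 with the targets above. TAGLN2 rose in both lines (log2 0.35 in A375 and 0.70 in SKMel28). CNN3 changed in the same directions as CNN2, falling by 0.58 in A375 and rising by 0.49 in SKMel28. FHL2 rose in A375 (0.79) and fell in SKMel28 (-0.65), so it did not move with FHL1 in SKMel28. CTNNA1, the vinculin relative alpha-catenin, fell in both lines (-0.60 and -0.16), while VCL rose.

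Of 10 tested immediate early genes that SRF drives with the ternary complex factors, 7 rose and 2 fell in resistant A375 cells, beside 25.0% and 26.3% of all tested genes, and 1 rose and 9 fell in resistant SKMel28 cells, beside 34.2% and 35.8% (medians 0.44 and -0.93). EGR3, named after its values were seen, fell in both lines (log2 -1.28 in A375 and -3.18 in SKMel28), and EGR2, likewise, did not pass the test in A375 (edgeR adjusted p = 0.0770). EGR1 rose in A375 by 1.13 and fell in SKMel28 (log2 -2.56). DUSP5, an ERK phosphatase, IER2 and MCL1 had the same pattern, at 0.93, 0.41 and 0.21 in A375 and -0.94, -0.91 and -0.81 in SKMel28. NR4A1 ran the other way (-1.47 in A375 and 0.47 in SKMel28).

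**Figure D4:**
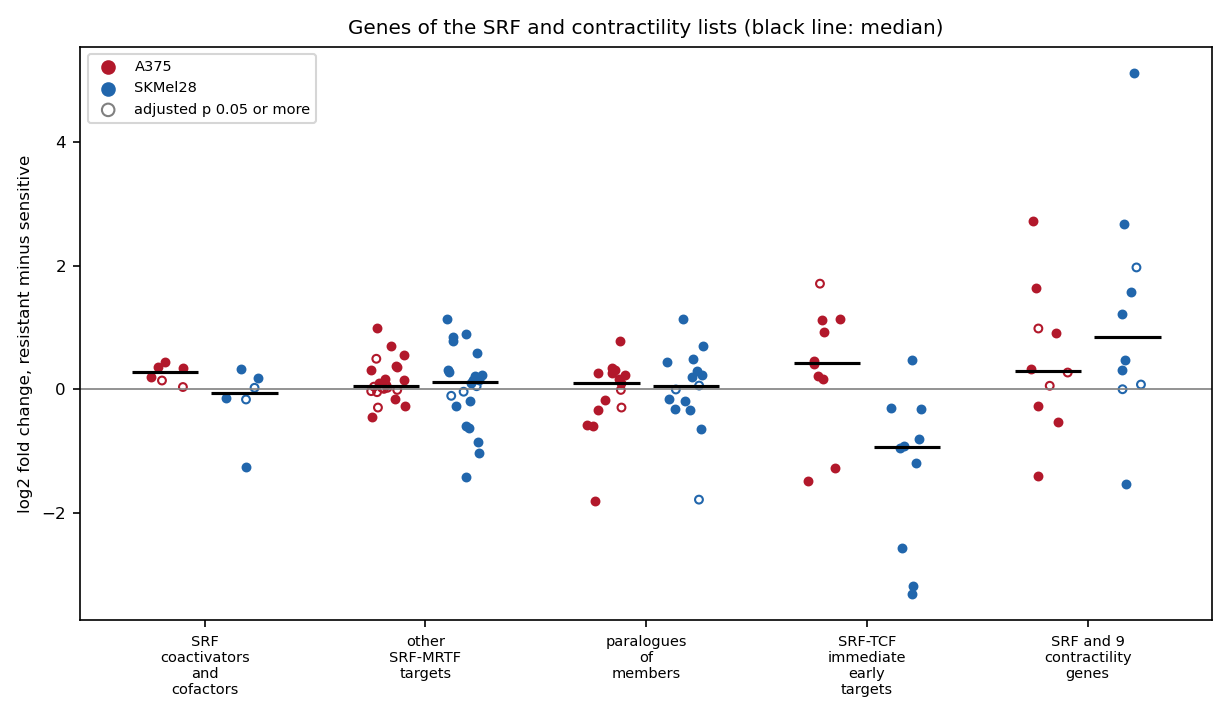
Log2 fold change of resistant over sensitive cells for each tested gene of the 4 lists and for the 10 members, in A375 and SKMel28, with each median as a black line and open points where the adjusted p was 0.05 or more. The immediate early list has its median at 0.44 in A375 and -0.93 in SKMel28, and the other 3 lists have medians between -0.05 and 0.28.

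The genes around each member on its chromosome were also read. Tested genes starting within 5 Mb of each member, other members left out, were described by their median log2 fold change. MYL9 on chromosome 20 had 94 tested neighbours, of which 10 rose and 68 fell in A375 (median -0.35), beside 25.0% and 26.3% of all tested genes, and 21 rose and 48 fell in SKMel28 (median -0.25), beside 34.2% and 35.8%. The MYL9 change went beyond these medians by -1.04 and -1.27. ACTA2 had neighbours with medians of 0.11 in A375 and 0.54 in SKMel28, where 35 of 54 rose and 4 fell; its own change exceeded them by 1.54 and 2.13. FHL1 on the X chromosome had neighbours at 0.41 in A375 and 0.21 in SKMel28 and exceeded them by 2.32 and 1.02. CNN2 and VCL rose in SKMel28 while their neighbours' medians were -0.40 and -0.35, and TAGLN stood 5.20 above neighbours at -0.07. The part of the stretch in each change was not tested.

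**Figure D5:**
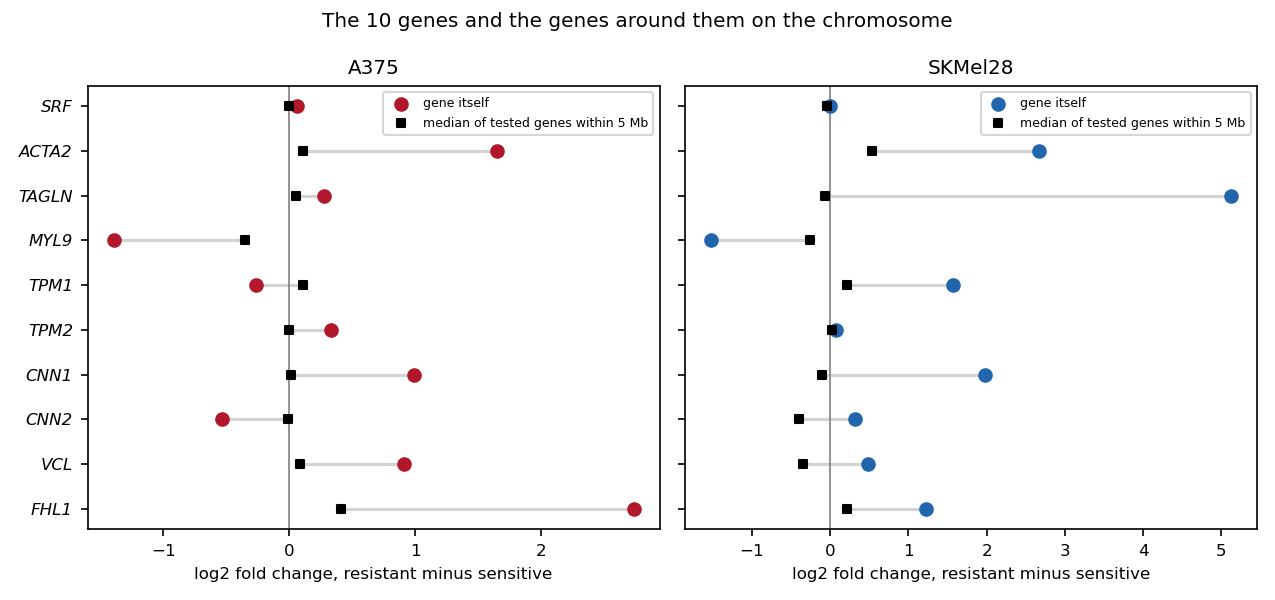
Log2 fold change of each gene beside the median of the tested genes within 5 Mb of its start, in A375 and SKMel28; the panels have different horizontal scales. The neighbours' medians lie between -0.40 and 0.54, and those of MYL9 are below 0 in both lines.

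Genes with group means most like a member were found by the root mean square distance between centred log2 CPM over the 4 groups, among 10570 genes of at least 10 CPM in their highest group. TAGLN had no close match: SNAP25, a synaptic vesicle fusion protein, was nearest at 0.43 log2 units, with 2.25 CPM in resistant and 4.0 CPM in sensitive A375 cells and 11.5 CPM in resistant and 0.543 CPM in sensitive SKMel28 cells. SH3BGRL2 and PCDHB13 followed at 0.59 and 0.68. TPM1 was nearest to SCML2 (0.12), PPAP2C (0.12) and MMACHC (0.16). SRF, which varied little, was matched within 0.02 by ZNF581, ZNF234 and ASB8. Likeness over 4 group means describes the pattern only.

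Markers of other cells that make contractile proteins were read beside these results. Of 6 smooth muscle markers, 1 reached 1 CPM in resistant A375, sensitive A375 and sensitive SKMel28 cells and 2 did in resistant SKMel28 cells. Their summed level was 116 to 121 CPM in resistant and 88.2 to 97.7 CPM in sensitive A375 libraries, and 57.1 to 60.2 CPM in resistant and 92.6 to 107 CPM in sensitive SKMel28 libraries, nearly all of it SMTN; ACTG2 of this list is also among the targets and paralogues above. The defining markers MYH11, DES, LMOD1 and MYOCD were below 1 CPM in every group. In SKMel28 SMTN was at 56.2 CPM in resistant and 100.2 CPM in sensitive cells, while ACTG2 was at 1.74 CPM in resistant and 0.786 CPM in sensitive cells (log2 1.14, edgeR adjusted p = 0.00593) and DES at 0.267 CPM in resistant and 0.0221 CPM in sensitive cells. The part of these markers in the results was not tested. The 7 fibroblast markers summed to 18.7 to 21.9 CPM in resistant and 25.6 to 27.6 CPM in sensitive A375 libraries, and 17.5 to 21.0 CPM in resistant and 26.7 to 27.1 CPM in sensitive SKMel28 libraries. Endothelial markers (4) were at most 6.50 CPM and leukocyte markers (5) at most 9.68 CPM in sum. The 5 keratinocyte markers summed to 83.7 to 94.0 CPM in resistant and 121 to 124 CPM in sensitive A375 libraries, and 28.3 to 33.7 CPM in resistant and 66.5 to 70.8 CPM in sensitive SKMel28 libraries, with KRT1 at 0 reads in all groups. Most of these sums was KRT10, at 88.7 CPM in resistant and 95.9 CPM in sensitive A375 cells. KRT10 had 30.8 CPM in resistant and 68.2 CPM in sensitive SKMel28 cells. KRT14 added 25.5 CPM in sensitive A375 cells, and KRT5 and EPCAM were below 1 CPM in every group. In bulk RNA, fewer cells making a gene and less RNA per cell cannot be told apart.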

How the data were processed

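Total RNA was enriched for poly(A) and sequenced, per the labels' protocols. HISAT2, StringTie and the build GRCh38.p12 stand in the submitters' processing notes, while the names of the deposited files point to STAR and to unstranded counting of hg38 genes; which made the values is not settled here. The authors deposited raw counts of reads per gene, 1 file per library. Its 5 summary lines, which hold 15.1% to 19.5% of the reads counted, were left out. From these counts edgeR 4.0.16 (R 4.3.3, limma 3.58.1) fitted 4 group means to all 12 libraries (filterByExpr, TMM, robust quasi-likelihood, 8 residual degrees of freedom, biological coefficient of variation 4.2%). P-values were adjusted over the 15506 genes tested. The procedure was tested on simulated data. Lengths and positions came from GENCODE on GRCh38; 23864 symbols matched directly, 680 through a synonym and 1955 not.

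The members and lists were chosen with earlier results of these data known. Of the lists laid out at first, 1 is not reported here. Named genes were all members, the SRF partners, up to 3 called genes of smallest adjusted p per list and line, and the 3 nearest patterns to SRF, TAGLN and TPM1. Replicates differed by more than counting noise. Same-numbered libraries did not deviate together (correlations -0.00 to 0.05), so no pairing was used. Alternatives were DESeq2 1.42.0, other scalings, no filter, a replicate block and each library left out.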

Additional observations from a re-analysis of the deposited data

Results flagged for a closer look

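The resistance change differed between the lines by the edgeR test of the difference for 7 of the 10 genes, given here as the log2 change in A375 minus that in SKMel28. It was 1.51 for FHL1, 0.42 for VCL and 0.25 for TPM2, and -4.85 for TAGLN, -1.84 for TPM1, -1.02 for ACTA2 and -0.85 for CNN2. The same test passed for 63.8% of all genes, so passing it does not set these genes apart.

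Among the SRF partners the difference was 1.46 for ELK1, 0.49 for ELK3, 0.33 for ELK4, 0.26 for MKL1 and -0.30 for MKL2. For the other targets it was 1.85 for MICAL2, -1.16 for MYH10, -0.60 for DSTN and -0.27 for ANXA2. For paralogues it was 1.43 for FHL2, -1.07 for CNN3, -0.44 for CTNNA1 and -0.36 for TAGLN2. The immediate early genes gave 3.69 for EGR1, 1.87 for DUSP5, 1.32 for IER2, 1.02 for MCL1 and -1.95 for NR4A1. Apart from the partners, these genes were named by their p-values within a line. Larger differences among genes not named include 3.77 for FOSB and 1.98 for TGFB1I1. The larger value was in A375 for 4 of 6 partners, 6 of 22 targets, 5 of 15 paralogues and 9 of 10 immediate early genes that passed. It was in SKMel28 for 1, 7, 6 and 1 of them, beside 31.4% and 32.4% of all tested genes.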

How the results depend on the processing

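All counts of called members, called list genes and neighbouring pairs stayed within 1.5 times their reported value under every alternative run. With 1 library left out, 7 to 9 members were called in A375, 7 to 8 in SKMel28 and 6 to 7 for the difference between lines, and 6 to 10 neighbouring pairs did not differ. With the replicate number as a block, 7 members were called in A375, 7 in SKMel28 and 7 for the difference, and it changed no other call; the numbers are not known to pair the libraries. The direction changed in 3 cases, none of them a call: SRF in SKMel28 was at -0.031 with library size scaling (adjusted p = 0.604) and, with 1 library left out, between -0.0023 (without the third resistant library, adjusted p = 0.989) and 0.024, and the MYL9 difference between lines lay between -0.033 (without the first resistant SKMel28 library, adjusted p = 0.900) and 0.268. The cause was not tested. The TPM2 difference between lines lost its call 8 times and lay between 0.11 and 0.33. Calls that appeared only with a library left out, for TAGLN, CNN1 and TPM2, are given in the report. Another scaling moved the median of all genes by between -0.035 and 0.029 on the log2 scale. Of the recomputed medians of neighbouring genes, 59 moved by more than the replicate spread, 61 did not, and none was reversed. With each line fitted alone, CNN1 in SKMel28 did not pass the count filter and has no value. CNN1 had at most 30 reads in any library.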
